A study of Homo sapiens with 4 samples.

Results

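The loci of 10 interferon-induced effector genes were examined for open chromatin in the human thyroid cancer cell line BCPAP, treated with the demethylating agent 5-azacytidine (2 libraries) or left untreated (2 libraries). The assay, ATAC-seq, uses a transposase that cuts and tags open DNA, and sites of dense cutting are listed as peaks. The labels give neither a dose nor a duration of treatment, and do not say whether replicates came from separate cultures, so p-values measure only the spread between these libraries, which may be technical. The thyroid identity of the cells was not checked against marker genes, since gene positions on hg19 were not used here.

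The loci were taken as 4 windows on the hg19 build. They were chr10:91040000-91200000 for IFIT2, IFIT3 and IFIT1, chr12:113325000-113470000 for OAS1, OAS3 and OAS2, chr21:42715000-42850000 for MX2 and MX1, and chr1:79065000-79150000 for IFI44L and IFI44, with the genes named in their order along each window. A peak belonged to a window if it overlapped it by at least 1 bp. The windows held 114 and 102 peaks in treated replicates 1 and 2, against 89 and 86 in untreated replicates 1 and 2, out of 259572 and 245142 treated and 221110 and 223345 untreated peaks on chromosomes 1 to 22 and X. Overlapping peaks (1 bp or more) from any list were joined, which gave 152 regions in the windows out of 373425 in all. Peaks joined in this way need not cover the same bases in every list. Start sites were not placed on hg19, so regions are assigned to a window and not to a gene.

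Type I interferon acts through a cell surface receptor and induces genes that carry interferon-stimulated response elements near their starts. The genes studied here are among the best known of them. IFIT1 binds viral RNA that lacks host-type cap methylation, and IFIT2 and IFIT3 are related proteins that form complexes with it. OAS1, OAS2 and OAS3 sense double-stranded RNA and make the oligoadenylates that activate RNase L. MX1 and MX2 are dynamin-like GTPases that block influenza viruses and lentiviruses, and IFI44 and IFI44L are less well characterised interferon-induced proteins. In other cancer cells, loss of DNA methylation is known to release endogenous retroviral transcripts that are sensed as viral RNA and induce such genes, which is called viral mimicry. Accessibility at these loci under 5-azacytidine is the question addressed here. ATAC-seq measures exposed DNA and not transcription.

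Promoter windows of 250 bases before to 50 bases after an annotated start were found for 7 of the 10 genes (IFIT1, IFIT3, OAS1, OAS3, MX1, IFI44 and IFI44L) in RefSeq sequences on GRCh38.p14. The core of the response element was searched as GAAA, any 2 bases and GAAA on both strands, with overlapping matches counted. At least 1 match was found in 9 of 11 windows, and in 6 of the 7 genes, with the overlapping windows of both listed IFI44 starts holding the same match. Among all 35116 promoter windows of the same length, 3.57% held a match. The windows of OAS1 and of the second listed MX1 start had none, which says only that these letters are not there. A match is a description of the sequence and does not show binding. Upstream stretches of 160 bases that end at the base before the first listed start are shown for 1 gene of each of 3 loci and for IFIT3, because they show how the element recurs and how different the surrounding sequence is. Each sequence is printed from the plus strand of GRCh38.p14. Capitals mark the matches, which read GAAA in OAS3 and, as matches on the other strand, TTTC in IFIT1, IFIT3 and IFI44. The positions are not on the scale of the hg19 peaks.
IFIT1, chr10:89392463-89392622: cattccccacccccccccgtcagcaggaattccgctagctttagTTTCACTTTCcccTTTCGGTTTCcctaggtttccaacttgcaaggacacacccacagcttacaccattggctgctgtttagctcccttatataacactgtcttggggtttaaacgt
IFIT3, chr10:89327837-89327996: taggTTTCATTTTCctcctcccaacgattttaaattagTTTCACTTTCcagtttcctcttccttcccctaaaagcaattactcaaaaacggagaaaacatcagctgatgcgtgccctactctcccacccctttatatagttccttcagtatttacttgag
OAS3, chr12:112938314-112938473: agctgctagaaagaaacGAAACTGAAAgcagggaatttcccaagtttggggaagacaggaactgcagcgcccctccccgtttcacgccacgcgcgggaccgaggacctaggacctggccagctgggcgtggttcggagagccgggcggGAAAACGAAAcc
IFI44, chr1:78649629-78649788: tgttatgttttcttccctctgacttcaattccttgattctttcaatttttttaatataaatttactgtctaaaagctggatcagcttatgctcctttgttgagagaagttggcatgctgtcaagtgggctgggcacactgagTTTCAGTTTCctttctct

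In IFIT1 the matches began 116 and 103 bases before the start, in IFIT3 156 and 122 bases before it, in OAS3 143 and 12 bases before it, and in IFI44 18 bases before it. The promoters also differed in CpG content. Methylation of these CpG dinucleotides was not measured here. The IFI44 and IFI44L windows held 0 CpG dinucleotides and the OAS1 window 1. The IFIT1 window held 4 and the first listed IFIT3 window 5. The OAS3 window held 20, and the 3 listed MX1 windows held 20, 30 and 6. The median of all promoter windows was 14, and 8 of the 11 windows lay below it.

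Libraries differed in strength, and this touches each result. Coverage at a peak's summit was derived from the authors' fold enrichment, and was 4 reads or more in every list. Over the 105414 regions that every list held, it had a median of 11 and 16 reads in treated replicates 1 and 2, and 23 and 18 in untreated replicates 1 and 2. Treated replicate 1 thus had the lowest peaks. It also had the most peaks with a coverage under 10, at 178394 against 129858 in treated replicate 2 and 93907 and 111668 in untreated replicates 1 and 2. Coverage is therefore given both in reads and as scaled coverage, which is reads divided by these medians. The lowest coverage, 4 reads, became 0.36 and 0.25 in treated and 0.17 and 0.22 in untreated replicates 1 and 2. Scaled values of low regions thus could not fall as far in the treated lists. The number of reads sequenced is unknown. The uniform background coverage that the fold values imply was 0.898 and 0.875 in treated and 0.913 and 0.898 in untreated replicates 1 and 2. The cause of the difference in peak height was not tested.

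The 4 windows held more peaks in treated than in untreated cells, but the excess lay in low peaks. The mean was 108 ± 8.49 peaks in treated and 87.5 ± 2.12 in untreated cells (SD, n = 2 each), a ratio of 1.23 that compares with 1.14 over all peaks of the genome. Both treated libraries were above both untreated ones (exact two-sided permutation test, p = 0.33, below which this design with 2 libraries a group cannot go). As a rate, the windows held 4.39 and 4.16 of every 10000 peaks in treated replicates 1 and 2, against 4.03 and 3.85 in untreated replicates 1 and 2. The treated libraries had 36 and 49 peaks with 10 reads or more and the untreated libraries 56 and 44, so that the groups overlapped. Their ratio of means was 0.85, against 0.822 over the genome. Peaks below that coverage numbered 78 and 53 in the treated and 33 and 42 in the untreated libraries, a ratio of 1.75 against 1.5 over the genome. Without treated replicate 1, the log2 ratio of all peaks in the windows was 0.22, against 0.30 with it.

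The windows differed from one another in this count. In the IFIT window treated cells had 33 and 27 peaks and untreated cells 31 and 32, and the groups overlapped. In the OAS window treated cells had 29 and 34 peaks and untreated cells 21 and 22, a ratio of 1.47. In the IFI44 window treated cells had 24 and 20 and untreated cells 16 and 13, a ratio of 1.52. For OAS and IFI44 both treated libraries were above both untreated ones (exact permutation p = 0.33 each). The MX window had 28 and 21 peaks in treated and 21 and 19 in untreated cells, where treated replicate 2 equalled untreated replicate 1. The difference between windows was not tested.

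**Figure D1:**
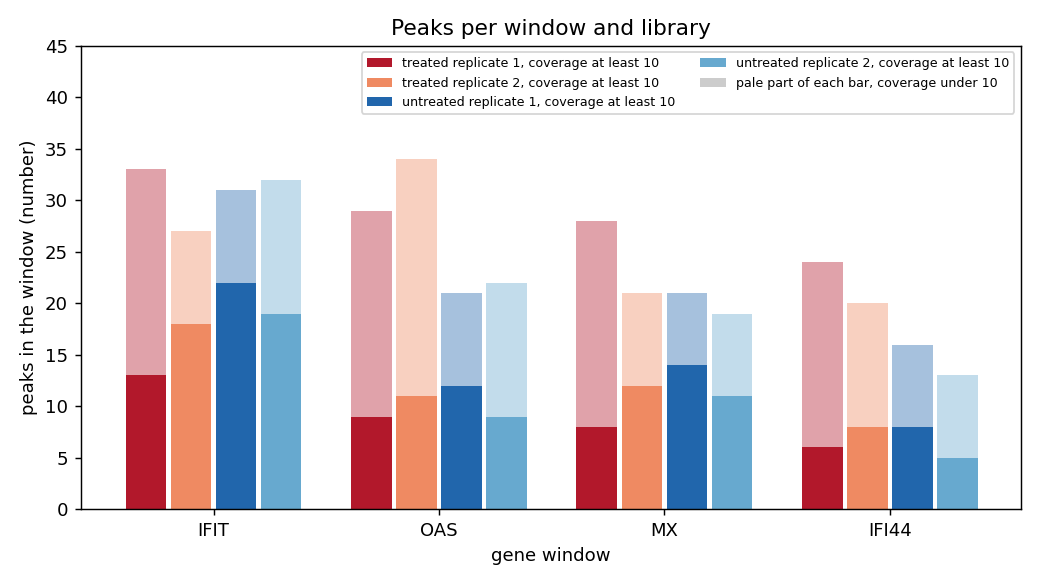
Number of peaks in each gene window (x axis) for the 2 treated and 2 untreated libraries, with the full colour for peaks whose summit reached 10 reads and the pale colour for lower ones. Total bars of the treated libraries are taller than those of the untreated libraries in the OAS (29 and 34 against 21 and 22) and IFI44 (24 and 20 against 16 and 13) windows, while the full-colour parts overlap in all 4 windows but IFIT, where they are 13 and 18 in treated and 22 and 19 in untreated cells.

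Few regions in the windows were listed in both libraries of 1 group and in neither of the other. Regions listed in the 2 treated libraries but in no untreated one are called gained, and those with the reverse pattern lost. There were 4 gained regions among the 152, or 2.63%, against 4.21% of all regions of the genome. There were 2 lost regions, or 1.32%, against 3.35% of all regions. The counts are small, and both shares were below the genome's. Presence was not tested for single regions, since an exact permutation test of 2 libraries against 2 cannot pass a threshold. The 4 patterns that pair 1 treated with 1 untreated list held 10 regions together, or 6.58%, against 7.85% of all regions.

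All 4 gained regions were low. In the OAS window, chr12:113409334-113410157 had a summit coverage of 6 and 8 reads in treated replicates 1 and 2. In the MX window, chr21:42730740-42731538 had 5 and 8 reads, and chr21:42827098-42827734 had 6 and 5 reads. The fourth region, chr1:79149520-79150158 in the IFI44 window, had 5 and 6 reads and ran over the window's edge. No untreated library had a listed peak at any of them. At chr21:42827098-42827734, untreated replicate 1 lacked a peak number in its list, so a peak may have been taken out of that list. The IFIT window had no gained region. In none of the 4 windows did a gained region reach a coverage of 10 reads in either treated library.

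The lost regions were as low. In the OAS window, chr12:113346987-113347541 had 6 and 6 reads in untreated replicates 1 and 2 and no listed peak in the treated libraries. In the MX window, chr21:42847649-42848199 had 8 and 6 reads there and none listed in the treated libraries. The IFIT and IFI44 windows had none.

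**Figure D2:**
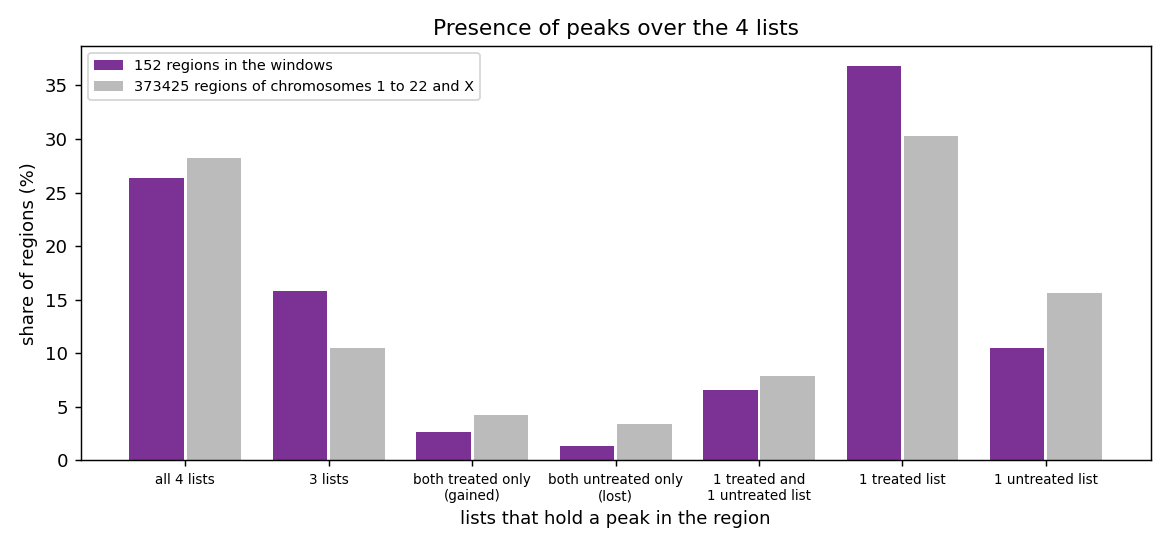
Share of regions (y axis, %) by the lists that hold a peak in them, for the 152 regions in the windows and for all 373425 regions. Gained regions made up 2.63% of the windows' regions against 4.21% of all, and lost regions 1.32% against 3.35%, while regions in 1 treated list only made up 36.8% against 30.3%.

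Most treated-side peaks without an untreated counterpart were in 1 library. Regions found in 1 treated list only numbered 56, or 36.8% of the regions, against 30.3% over the genome. Regions found in 1 untreated list only numbered 16, or 10.5%, against 15.6%. Treated replicate 1 alone held 34 of the 56 and treated replicate 2 alone held 22. Of these 22, 14 were among the 48 regions of the OAS window. The IFIT window had 1 among 42 regions, the MX window 3 among 36 and the IFI44 window 4 among 26. Singled out after its values were seen, the stretch chr12:113388939-113415456, of 26.5 kb, had no listed peak in either untreated library. It held 8 regions, of which 6 were in treated replicate 2 alone, 1 in treated replicate 1 alone and 1 was the gained region of the OAS window. Their coverage was 4 to 8 reads in treated replicate 2 and 6 reads in treated replicate 1.

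**Figure D3:**
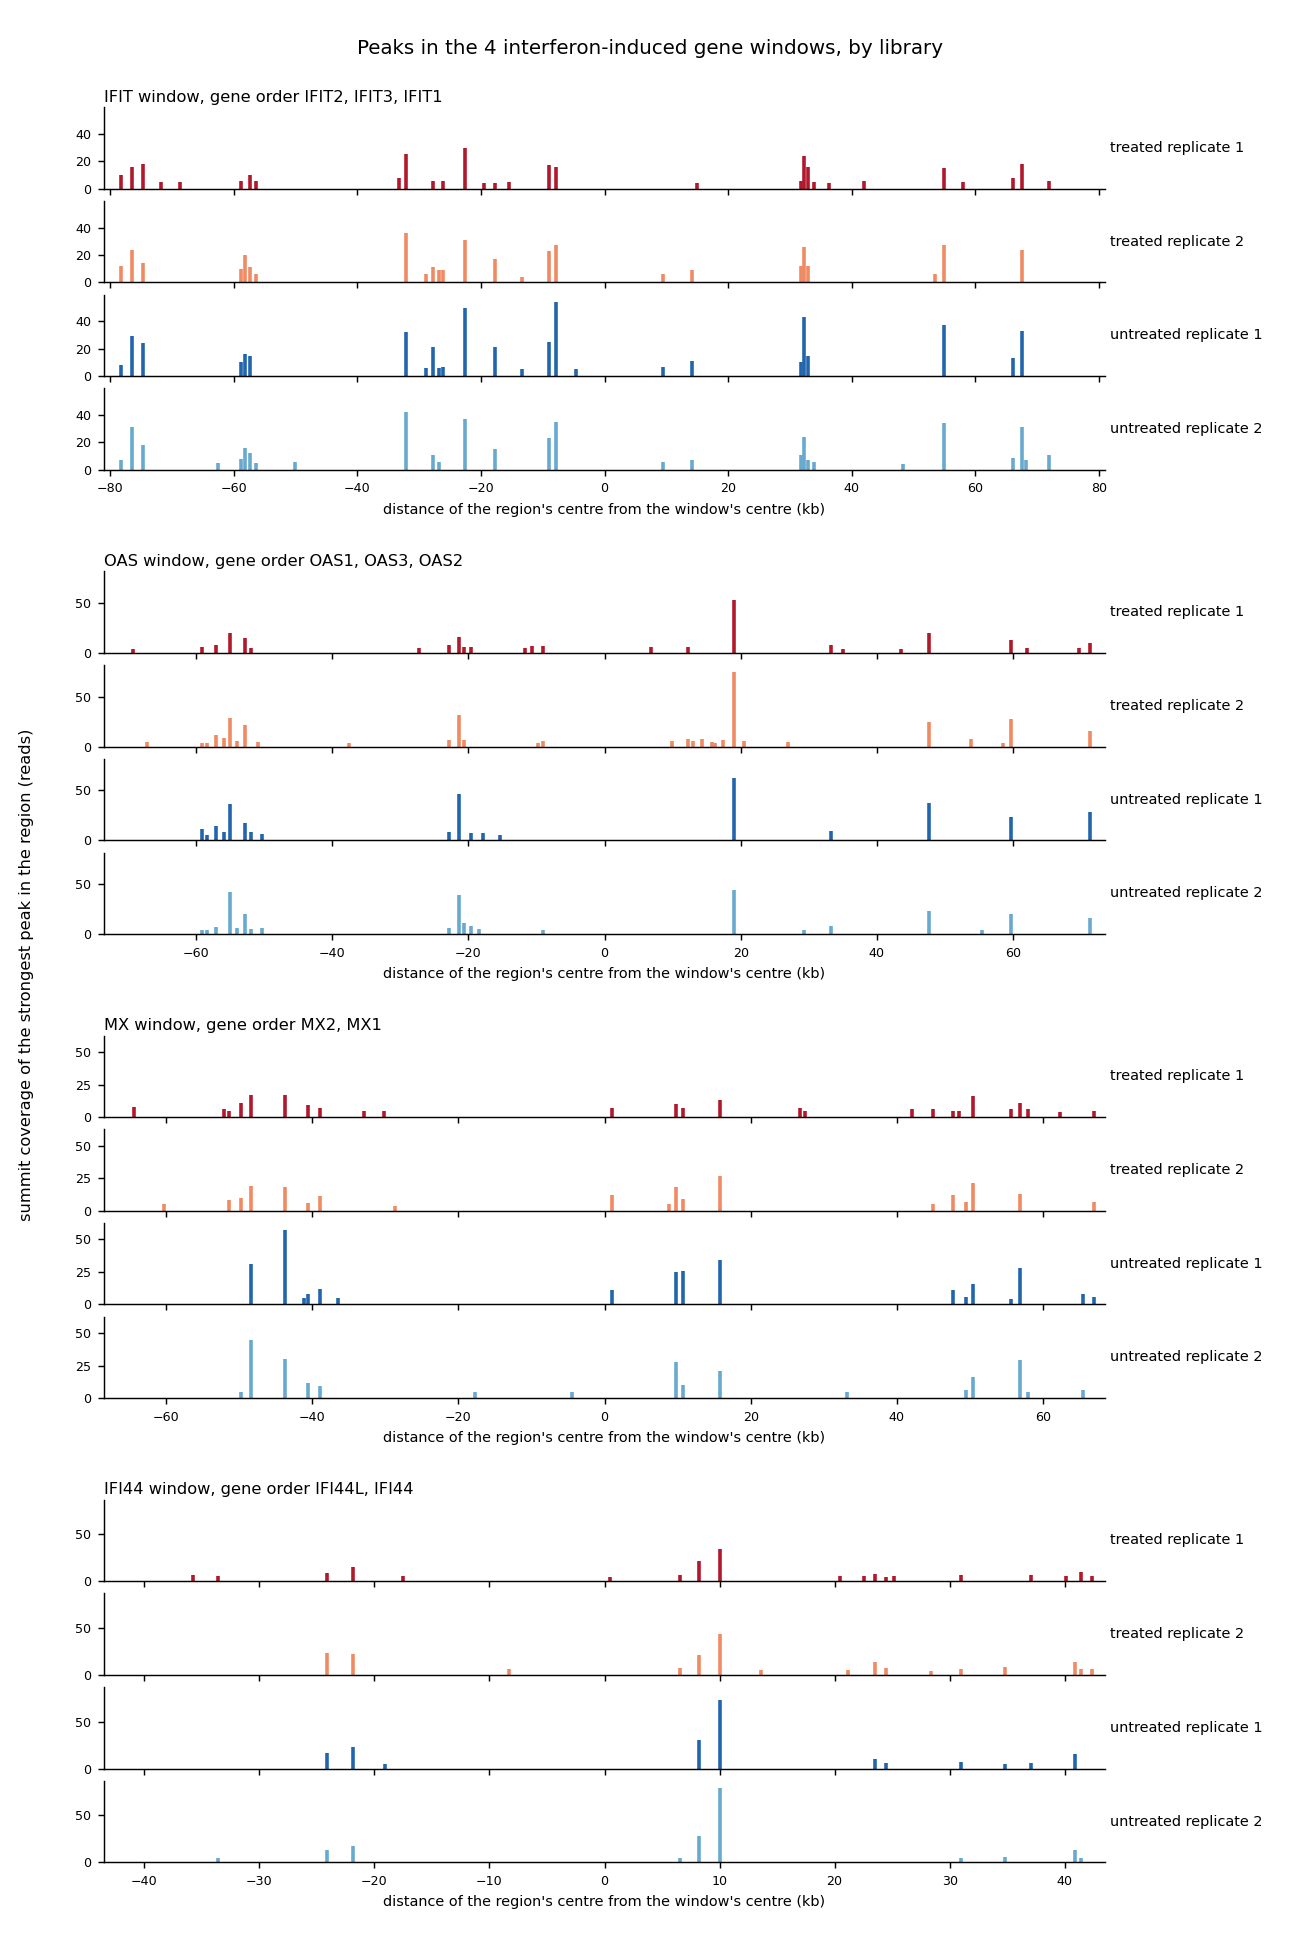
Peaks along the 4 gene windows, with the distance of a region's centre from the window's centre (x axis, kb) and the summit coverage of its strongest peak (y axis, reads), in 1 row for each of the 2 treated and 2 untreated libraries. Each region is drawn at the same place in every row, whatever the position of its peaks in a list. The tallest OAS region had 53 and 74 reads in treated and 62 and 44 reads in untreated libraries. Many low peaks are in some rows only.

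Some sites, both low and tall, had a listed peak in every library. Of the 152 regions, 40 had a peak in all 4 lists (26.3%, against 28.2% of all regions), with 16 in the IFIT, 10 in the OAS, 9 in the MX and 5 in the IFI44 window. In these 40 the median summit coverage was 15 and 20 reads in treated replicates 1 and 2, against 25 and 20 reads in untreated replicates 1 and 2. After scaling it was 1.36 and 1.25 in treated and 1.09 and 1.11 in untreated cells. The median log2 ratio of treated to untreated scaled coverage over the 40 regions was 0.23, with quartiles of −0.22 and 0.48, against a median of 0.06 over all regions in 4 lists. The scaled medians of both treated libraries were above those of both untreated libraries (exact permutation p = 0.33). Among the 26 regions with a coverage of at least 10 reads in every list the median was 0.13, against −0.04 over the genome, and the libraries overlapped (exact permutation p = 1). Without scaling the median over the 40 regions was −0.42, against −0.55 over the genome, so the sign depended on the scaling.

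Scaled coverage was higher in both treated than in both untreated libraries in 15 of the 40 regions, against 27.2% of all regions in 4 lists. It was lower in both in 4 of the 40, against 22.2%. Where every list had 10 reads or more (26 regions), the counts were 7 higher and 4 lower, against 22.1% and 27.8%. Such separation is frequent throughout the genome, and no single region could pass the exact permutation test used here. Of the 15 higher regions, 5 were in the IFIT, 5 in the OAS, 2 in the MX and 3 in the IFI44 window. Before scaling, 1 of these 15 was still higher in both treated libraries, 13 overlapped and 1 was lower. All 4 lower regions were lower in both treated libraries also before scaling, as were 47.6% of all regions in 4 lists.

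**Figure D4:**
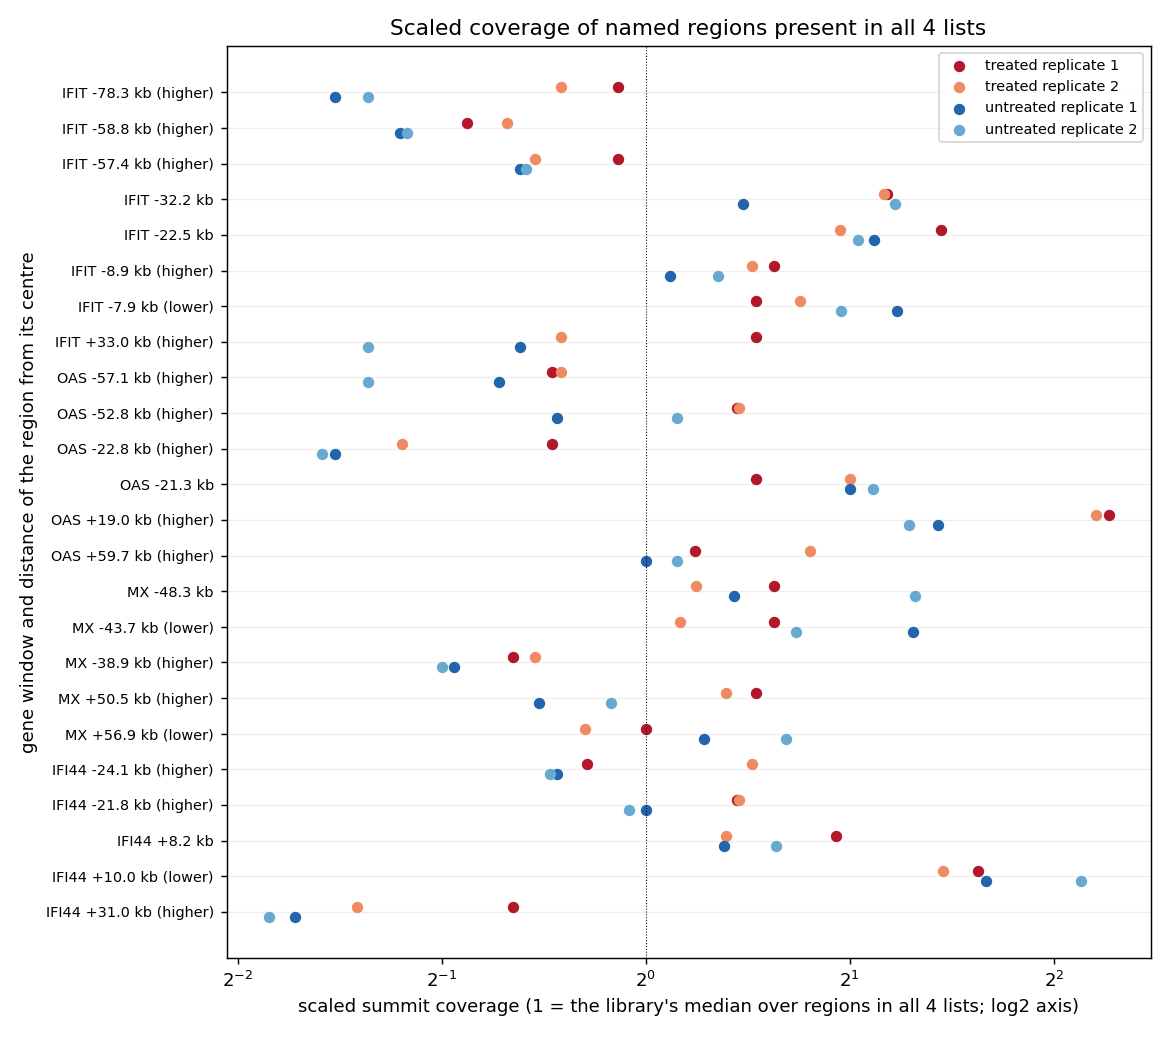
Scaled summit coverage (x axis, log2 scale, 1 is the library's median over regions in all 4 lists) of 24 named regions, each labelled by its window and its distance from the window's centre, with 1 point for each treated and untreated library. The OAS region 19 kb to the right of the centre is the highest, at 4.82 and 4.62 in treated and 2.70 and 2.44 in untreated libraries, and most regions marked higher lie at a scaled coverage below 1.5.

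In the OAS window the tallest site was the one with the clearest difference after scaling among well covered regions. The region chr12:113415457-113417533 had a coverage of 53 and 74 reads in treated replicates 1 and 2, against 62 and 44 reads in untreated replicates 1 and 2. The groups overlapped in reads. Scaled coverage was 4.72 ± 0.137 in treated and 2.57 ± 0.178 in untreated cells (SD, n = 2 each), a ratio of 1.84 and a log2 ratio of 0.88 (exact permutation p = 0.33). It exceeded the log2 ratio of 90.6% of all regions in 4 lists. Leaving out each library in turn gave log2 ratios of 0.72 to 0.83. Here and below, the scaling medians were then taken anew over the regions in all remaining lists. With the medians kept, the ratios at this region were 0.81 to 0.95. Within each list, 98.7% and 98.1% of the shared regions were lower than this one in treated replicates 1 and 2, against 87.2% and 84.8% in untreated replicates 1 and 2. The region was made of several summits. Treated replicate 1 had 4, with 14, 53, 21 and 8 reads, and treated replicate 2 had 4, with 10, 74, 36 and 14 reads. Untreated replicate 1 had 3, with 62, 24 and 22 reads, and untreated replicate 2 had 2, with 44 and 13 reads. In both groups the tallest summit was flanked by lower ones on the right. Only the treated libraries also had a summit listed to its left, but not at the same place. Its peak spanned chr12:113415712-113416211 in treated replicate 1 and chr12:113415457-113415956 in treated replicate 2.

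At the other OAS sites described here the differences were smaller after scaling. The region chr12:113375838-113376515 had 16 and 32 reads in treated and 46 and 39 in untreated cells, or 1.73 ± 0.386 and 2.08 ± 0.118 after scaling (SD, n = 2 each), and the scaled values touched at 2.00 in treated replicate 2 and untreated replicate 1. In reads both treated libraries were below both untreated ones there (log2 ratio −0.82), as in 47.6% of all regions in 4 lists. The region chr12:113344435-113345006 had 15 and 22 reads in treated and 17 and 20 in untreated cells. Its scaled coverage was higher in both treated libraries, at 1.37 ± 0.00804 against 0.925 ± 0.263, a log2 ratio of 0.57. Without scaling its log2 ratio was 0, and without untreated replicate 1 the scaled one was 0.18. At the right end, chr12:113456681-113457761 had 13 and 28 reads in treated and 23 and 20 in untreated cells, with a log2 ratio of 0.47 after scaling, and of 0.01 without treated replicate 2 and 0.29 without untreated replicate 1.

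In the MX window 2 well covered sites had less coverage in treated cells. The region chr21:42738471-42739067 had 17 and 18 reads in treated replicates 1 and 2, against 57 and 30 in untreated replicates 1 and 2. Both treated libraries were below both untreated ones, in reads and after scaling, at 1.34 ± 0.297 and 2.07 ± 0.574 (SD, n = 2 each). The log2 ratio was −0.63 (exact permutation p = 0.33), and 8.62% of all regions in 4 lists had a lower one. Without untreated replicate 2 the ratio was −0.98, and without untreated replicate 1 it was −0.45. Further right, chr21:42839119-42839663 had 11 and 13 reads in treated and 28 and 29 in untreated cells. Its scaled coverage was 0.906 ± 0.133 against 1.41 ± 0.278, a log2 ratio of −0.64. These 2 regions were the lowest of the 40 by log2 ratio. Near the left end, chr21:42733654-42734708 had 17 and 19 reads in treated and 31 and 45 in untreated cells, and its scaled values overlapped.

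The MX window also held sites with the opposite order. The region chr21:42832434-42833546 had 16 and 21 reads in treated and 16 and 16 in untreated cells, or 1.38 ± 0.1 and 0.792 ± 0.137 after scaling, a log2 ratio of 0.80. Without untreated replicate 1 that ratio was 0.51. The region chr21:42743265-42743839 had 7 and 11 reads in treated and 12 and 9 in untreated cells, with a log2 ratio of 0.37 after scaling and −0.22 without it. Without treated replicate 2 the scaled ratio was 0.17. Over the 9 shared regions of the window, 4 had a log2 ratio above 0 and 5 below, and the median was −0.38. The medians of the IFIT, OAS and IFI44 windows were 0.26, 0.35 and 0.49.

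In the IFI44 window the tallest site had less coverage in treated cells, but its rank within the lists overlapped between the groups. The region chr1:79116495-79118590 had 34 and 44 reads in treated replicates 1 and 2, against 73 and 79 in untreated replicates 1 and 2. Both treated libraries were well below both untreated ones in reads. After scaling the values were 2.92 ± 0.241 and 3.78 ± 0.859 (SD, n = 2 each), a log2 ratio of −0.37 (exact permutation p = 0.33), and treated replicate 1, at 3.09, lay just under untreated replicate 1, at 3.17. Without untreated replicate 2 the log2 ratio was −0.21, and without untreated replicate 1 it was −0.71. Within each list, 93.4% and 90.1% of the shared regions were lower than this one in treated replicates 1 and 2, against 91.2% and 96.8% in untreated replicates 1 and 2. Its neighbour chr1:79115234-79116254 had 21 and 21 reads in treated and 30 and 28 in untreated cells, and its scaled values overlapped. The broad region chr1:79084548-79086814, in the left part of the window, had 15 and 22 reads in treated and 23 and 17 in untreated cells. Its scaled coverage was 1.37 ± 0.00804 against 0.972 ± 0.0393, a log2 ratio of 0.49 that turned to −0.11 without scaling. Beside it, chr1:79083076-79083710 had 9 and 23 reads in treated and 17 and 13 in untreated cells, so that treated replicate 1 was the lowest in reads and treated replicate 2 the highest. Its scaled log2 ratio of 0.63 was 0.01 without treated replicate 2.

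In the IFIT window the largest log2 ratios were at low or medium sites. The region chr10:91041351-91042143, at the left edge, had 10 and 12 reads in treated and 8 and 7 in untreated cells. Its peaks were not at the same place. They spanned chr10:91041644-91042143 in both treated libraries, against chr10:91041410-91041909 and chr10:91041351-91041850 in untreated replicates 1 and 2. The region was the one of the 40 with higher coverage in both treated libraries before scaling as well. Its scaled coverage was 0.83 ± 0.112 against 0.368 ± 0.029 (SD, n = 2 each), a log2 ratio of 1.17 (exact permutation p = 0.33), above that of 96.2% of all regions in 4 lists. The region chr10:91152667-91153246 had 16 and 12 reads in treated and 15 and 7 in untreated cells, with a log2 ratio of 1.08 after scaling. That ratio was 0.49 without treated replicate 1 and 0.66 without untreated replicate 2.

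Of the 3 highest IFIT sites, 2 overlapped between the groups and 1 was lower in treated cells. The region chr10:91087305-91088372 had 25 and 36 reads in treated and 32 and 42 in untreated cells, and chr10:91097176-91097776 had 30 and 31 reads in treated and 50 and 37 in untreated cells. The scaled values of both regions overlapped between the groups. The region chr10:91111601-91112567 had 16 and 27 reads in treated and 54 and 35 in untreated cells, or 1.57 ± 0.165 and 2.15 ± 0.285 after scaling (SD, n = 2 each). Its log2 ratio was −0.45, and leaving out each library in turn gave −0.71 to −0.38. Both treated libraries were below both untreated ones before and after scaling. The adjoining region chr10:91110541-91111571, which ends 30 bp to its left, had 17 and 23 reads in treated and 25 and 23 in untreated cells. Its scaled coverage was higher in both treated libraries, with a log2 ratio of 0.34 that was 0.10 without untreated replicate 1. Its peak in treated replicate 1 (chr10:91111072-91111571) did not overlap that in untreated replicate 1 (chr10:91110541-91111040), so these values are from different bases.

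Presence and coverage could part ways at a single site. The region chr10:91061624-91062144 of the IFIT window, named after its values were seen, had no listed peak in treated replicate 1 but 20 reads in treated replicate 2, and 16 reads in each untreated library. No peak number was missing from the list of treated replicate 1 at that place. It was 1 of 8 regions in the windows that were absent from treated replicate 1 alone (5.26%, against 4.31% of all regions).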

How the data were processed

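Each library has 1 deposited peak list. Tools named in the submitters' processing notes are MACS2, Bowtie2, Trimmomatic and Picard, with the build hg19. Their versions and settings are not given in the sources used. In the deposited lists nearly all intervals are 500 bp wide, and the peak score in the deposited lists sums to 1000000 per list. The authors also deposited a fold enrichment, a −log10 p and a −log10 q for each peak. Every fold was a whole number of equal steps (within 0.001 of a step), which gave a uniform background coverage of 0.875 to 0.913, and summit coverage was the fold over the step minus 1. A Poisson model with that mean returned at least 99.8% of the deposited p-values. The summit offset was not used.

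Regions in all 4 lists were scaled by each list's median coverage. Where a library was left out, the medians were taken anew over the regions in all remaining lists. Group differences were tested by enumerating the 6 assignments of libraries (exact permutation, two-sided). Region building was tested on simulated lists. Named regions were the 3 highest per window present in all 4 lists, all gained and lost ones, and those without overlap between groups, up to 30, keeping the largest log2 ratios. Alternatives were a −log10 q of at least 5, equal list lengths, other merging and window rules, other scalings, a block for the replicate number and omission of single libraries. Genes, windows and lists were chosen with earlier results of these data known. Planned start-site counts for other interferon-induced genes were not run, since gene positions on hg19 were not used here. The scripts ran in Python 3.11.15 with pandas 2.3.3, matplotlib 3.10.9, scipy 1.17.1 and numpy 2.4.6.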

Additional observations from a re-analysis of the deposited data

How the results depend on the processing

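A summit coverage of at least 10, rank percentiles, rates per list, regions of at least 10 reads, missing peak numbers, edge regions and single windows were alternatives chosen after seeing the data. The log2 ratio of peaks in the windows was 0.30, and turned to −0.16 at a −log10 q of at least 5 and to −0.23 at a coverage of at least 10 (−0.22 and −0.28 over the genome). It kept its sign with equal list lengths (0.14), as a rate (0.12), in windows widened by 50 kb (0.23), without each window in turn (0.21 to 0.48) and without each library (0.22 to 0.38). Gained and lost regions numbered 2 and 1 at the stricter q (2.23% and 6.88% of all regions), while lost regions numbered 5 with 50% overlap (3.55%) and 5 in widened windows (3.35%). Gained regions numbered 4 with 50% overlap (3.88%), but chr12:113409334-113410157 and chr21:42730740-42731538 were then not among them. With 1 library fewer the definitions are looser by construction, which gave 10 to 38 gained and 6 to 12 lost regions, against 6.15% to 23.5% and 5.27% to 11.3% of all regions. The median log2 ratio of shared regions was 0.23, turned to −0.42 without scaling, and was 0.21 by the authors' score and 0.11 by summed coverage. Without each library it was 0.15 to 0.21 over the regions in all remaining lists, against −0.05 to 0.03 over the genome. Regions higher and lower in both treated libraries numbered 15 and 4 with scaling and 1 and 15 without it, where 4.39% and 47.6% of all shared regions were so. At a coverage of at least 10 in every list, 7 were higher. Without each library in turn, regions in all remaining lists were counted, which is a larger set. The higher ones then numbered 21 to 26 and the lower ones 8 to 13, against 35.1% to 38.3% and 36.5% to 40.3% of all such regions. Without scaling, log2 ratios turned to −0.17, −0.36 and −0.26 at 3 IFIT regions (chr10:91060927-91061512, chr10:91062335-91062898 and chr10:91110541-91111571), −0.070 and −0.069 at 2 OAS regions (chr12:113340125-113340688 and chr12:113456681-113457761), −0.22 at chr21:42743265-42743839 and −0.11 at chr1:79084548-79086814. The cause was not tested.

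Nothing in the labels ties same-numbered libraries to 1 batch, and deviations of same-numbered libraries correlated at −0.05 over 105414 regions. With the replicate block the log2 ratio of peaks was 0.30 and the median of shared regions 0.23, each with an exact p = 0.5, the smallest that 2 pairs allow. A peak under 4 reads is not listed, so absence from a list is not absence of accessibility.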
